A study of Mus musculus with 6 samples.

Results

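The glutathione, thioredoxin and NRF2 antioxidant genes were the 56 genes, of 56980 in the table, that encode glutathione S-transferases, glutathione peroxidases and peroxiredoxins by symbol, together with 19 named genes for the NRF2 and KEAP1 regulators, glutathione synthesis, reductases, superoxide dismutases, catalase and microsomal transferases. The members were picked by symbol, with earlier results of these data known. Of these, 43 passed the filter on low counts and were tested among 15190 genes in all.

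RNA-Seq had been performed on bone marrow (BM) MSCs, mesenchymal stem or stromal cells, from ovariectomised (OVX) female mice, a model of bone loss after estrogen deficiency. All recipients had been given antibiotics and then fecal microbiota transplantation (FMT) by gavage. In the TranspCtrl group (labelled FMT-Ctrl, 3 samples) the donors were sedentary osteoporotic mice, and in the TranspExer group (labelled FMT-Exer, 3 samples) they were osteoporotic mice trained on a treadmill. The comparison asked how expression in recipient MSCs differed with the exercise of the donor. The marrow cells had been flushed, plated and washed repeatedly, and no sorting step was described. The labels do not say whether the 3 samples of a group came from separate mice or cultures, so the p-values measure the spread between these samples only, which may be technical. In such bulk samples, fewer cells of a type and less RNA per cell cannot be told apart.

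Glutathione is a small cysteine-containing peptide that donates electrons to glutathione peroxidases and is conjugated to reactive compounds by glutathione S-transferases, and glutathione reductase regenerates it with NADPH. The thioredoxin system runs in parallel, with thioredoxin reductases supplying electrons through thioredoxin to most peroxiredoxins. The transcription factor NRF2, encoded by *Nfe2l2*, is kept low by KEAP1 and, once released under oxidative stress, binds antioxidant response elements near many of these genes. In MSCs, antioxidant capacity is known to bear on survival and on the choice between the osteogenic and adipogenic lineages.

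Some members that went up carry the core of the antioxidant response element (TGACNNNGC, searched on both strands, with no other motif searched) close to their start. The search covered 300 bases per RefSeq start in GRCm38.p6, from 250 bases before it to 50 after, and 48 of the 56 members had such a window. The core was found in 10 of these 48 (20.8%) and in 14.0% of all 27025 genes with a window, tested or not. All 10 were among the 37 tested members with a window (27.0%). By call it was found in 5 of 10 members that were higher in TranspExer, 2 of 11 that were lower, 3 of 16 that did not pass the test and 0 of 11 that were not tested. The stretches of 80 bases around the core are shown for 4 of the higher members, for *Gstm5* as a lower member and for *Nfe2l2* as the regulator itself, in the direction of transcription and with the core in capitals. A core on the opposite strand reads GCNNNGTCA. *Srxn1*, the fifth higher member with the core, has it after the start, and that stretch is not shown.
Gclm, chr3:122245388-122245467, plus strand: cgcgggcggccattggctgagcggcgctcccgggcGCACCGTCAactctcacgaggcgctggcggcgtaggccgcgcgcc
Prdx1, chr4:116685431-116685510, plus strand: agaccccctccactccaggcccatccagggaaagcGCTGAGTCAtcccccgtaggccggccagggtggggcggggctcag
Txnrd1, chr10:82859079-82859158, plus strand: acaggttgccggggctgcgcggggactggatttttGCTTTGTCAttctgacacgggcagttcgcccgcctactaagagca
Mgst1, chr6:138140436-138140515, plus strand: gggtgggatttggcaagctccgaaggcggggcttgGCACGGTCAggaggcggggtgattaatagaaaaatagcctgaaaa
Gstm5, chr3:107895774-107895853, plus strand: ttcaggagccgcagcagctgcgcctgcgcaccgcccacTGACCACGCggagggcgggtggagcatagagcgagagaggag
Nfe2l2, chr2:75704834-75704913, minus strand: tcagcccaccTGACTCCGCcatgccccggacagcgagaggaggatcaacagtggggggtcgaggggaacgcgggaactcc

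The first base of the core lies at position -134 from the start in *Gclm*, -133 in *Prdx1*, -92 in 1 of the 3 *Txnrd1* windows, -56 in 1 of the 2 *Mgst1* windows, -42 in *Gstm5* and -240 in *Nfe2l2*. A match is a run of letters and was not tested for binding. Windows of *Gclc*, *Gsr*, *Gsta4*, *Gsta5*, *Gstm2-ps1*, *Gstt2*, *Prdx6* and *Sod3* were not analysed here.

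Total counts were 17647638 to 21319166 per sample, and the members held 0.457% to 0.506% of them. TranspCtrl replicate 1 stood apart from the other 2 TranspCtrl samples. Over tested genes, its mean chi-square per gene against them was 59.2 and 54.0, compared with 3.79 between TranspCtrl replicates 2 and 3 and 4.43 to 7.82 among TranspExer samples. Of the tested members, 7 of 43 (16.3%) lay over 0.5 on the log2 scale from the mean of the other 2 samples, 4 above and 3 below, against 19.8% of all genes. The fold changes of these 7 members are given with and without it. Stromal markers were all detected, with 2 of 11 higher and 7 lower in TranspExer. They summed to 12134 CPM (counts scaled to a common library size with TMM factors) in TranspCtrl replicate 1, to 19820 and 19119 CPM in replicates 2 and 3, and to 12934 to 14158 CPM in TranspExer, so that the groups overlapped through replicate 1. Without *Col1a1*, the stromal marker of highest level, they summed to 7571, 9869 and 9506 CPM in TranspCtrl and 6139, 6354 and 6450 CPM in TranspExer, with no overlap. Markers of some other marrow cells moved with the groups too. Macrophage and monocyte markers (2 of 12 higher, 2 lower) summed to 9845 to 14968 and 8072 to 8758 CPM, or, without *Lyz2*, to 4883 to 5866 and 5476 to 5593 CPM, which overlapped. In the same order of groups, neutrophil markers (3 of 10 higher, 2 lower) summed to 3184 to 4267 and 5485 to 5705 CPM, and B and plasma cell markers (8 of 9 lower) to 5076 to 8543 and 1293 to 1414. Endothelial markers (8 of 8 higher) summed to 201 to 246 and 629 to 685 CPM, eosinophil, basophil and mast cell markers (6 of 7 higher) to 50.1 to 61.7 and 145 to 156, and megakaryocyte markers (2 of 4 higher) to 243 to 309 and 431 to 464. T and NK cell markers (1 of 6 higher, 1 lower) summed to 14.6 to 20.1 and 25.5 to 29.3 CPM, or, without *Nkg7*, to 8.01 to 12.7 and 7.56 to 9.29 CPM, which overlapped. Erythroid markers, none of them tested, stayed under 1 CPM. The part of these cells in the results on the antioxidant genes was not tested.

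The antioxidant genes split in direction between the groups. Of the 43 tested members, 11 were higher and 13 lower in TranspExer, and 19 did not pass the test (edgeR quasi-likelihood test, Benjamini-Hochberg adjusted p under 0.05). Among all tested genes 16.6% were higher and 15.5% lower, so that 55.8% of the members were called against 32.2% of all genes. The median log2 fold change of the members, -0.02, equalled that of all genes to that precision, and their median absolute log2 fold change was 0.40 against 0.29. In 13 members every TranspExer sample lay above every TranspCtrl sample and in 14 every one lay below, where 27.2% and 25.1% of all genes did so. Most changes were moderate. Past both thresholds that define differentially expressed genes (DEGs) in this study, adjusted p under 0.05 and a fold change of at least 2, there were 1 upregulated member, *Gsr*, and 3 downregulated members, *Gsta3*, *Gsta4* and *Gstt1*. *Gsta3*, *Gsta4* and the uncalled *Gstm7* reached the low-count filter in all samples of TranspCtrl only, so that the filter favoured a fall in them. Among the other 40 members 11 were higher and 11 lower, with 1 upregulated and 1 downregulated DEG. The DEG shares among all genes were 3.5% up and 5.28% down, so that the members' DEG counts were near the background and are no result about them.

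**Figure D1:**
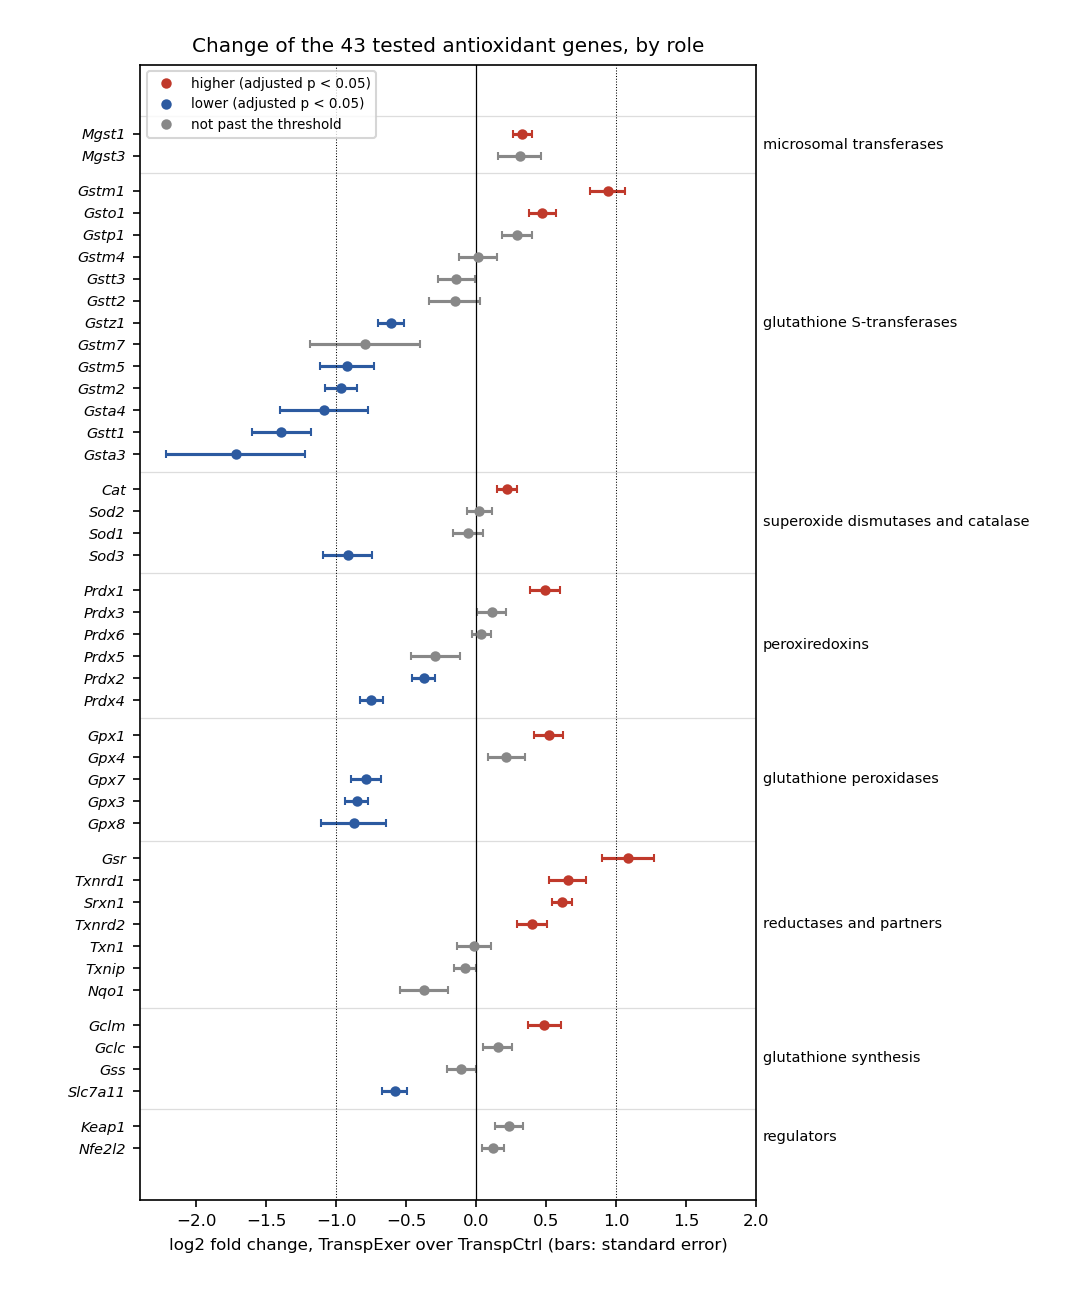
Log2 fold change of TranspExer over TranspCtrl (horizontal axis) for the 43 tested antioxidant genes, grouped by role, with bars for the standard error from the edgeR fit and dotted lines at a fold change of 2. The 4 called reductases and partners sit to the right of 0, and 6 of the 8 called glutathione S-transferases to the left.

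The 2 regulators did not pass the test. *Nfe2l2* (chr2:75675513-75704641 in mm10, minus strand) was at 207, 191 and 180 CPM in TranspCtrl and 212, 212 and 205 CPM in TranspExer, and its groups overlapped (log2 fold change 0.12, SE 0.08, adjusted p = 0.277). *Keap1*, the adaptor that targets NRF2 for degradation, was at 55.8, 71.8 and 64.2 CPM and then at 75.1, 75.3 and 75.4 CPM. The *Keap1* groups did not overlap, but the difference missed the threshold (0.24, SE 0.10, adjusted p = 0.101). Without TranspCtrl replicate 2, *Keap1* passed it (adjusted p = 0.0392). Without TranspCtrl replicate 1, *Nfe2l2* passed the threshold at a log2 fold change of 0.18 (adjusted p = 0.0175).

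The genes of glutathione synthesis moved in both directions. *Slc7a11*, the cystine importer that brings in the precursor, was at 27.98, 29.9 and 33.2 CPM in TranspCtrl and at 20.5, 20.3 and 19.9 CPM in TranspExer. All 3 TranspExer samples were below all TranspCtrl samples, a fall of 1.499-fold (30.4 ± 2.64 against 20.3 ± 0.303 CPM, mean ± SD, n = 3, log2 fold change -0.58, SE 0.09, adjusted p = 0.00289). *Gclm*, the modifier subunit of glutamate-cysteine ligase, the rate-limiting enzyme, rose from 63.7, 84.1 and 86.3 CPM to 112, 110 and 106 CPM (0.49, SE 0.12, adjusted p = 0.0175). TranspCtrl replicate 1 was the lowest *Gclm* sample. Without it the log2 fold change was 0.36 (adjusted p = 0.000185), and the call was lost when any 1 TranspExer sample was left out (largest adjusted p = 0.0627). The catalytic subunit *Gclc* (27.97 ± 3.54 and 31.1 ± 0.721 CPM, n = 3, adjusted p = 0.285) and glutathione synthetase *Gss* (19.2 ± 1.92 and 17.8 ± 0.740 CPM, n = 3, adjusted p = 0.462) did not pass the test.

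Of the 7 reductases and their partners, 4 rose and none passed the test in the other direction. *Gsr*, glutathione reductase (ENSMUSG00000031584, chr8:33652523-33698163 in mm10, plus strand), had the largest rise of any member. It was at 114, 187 and 196 CPM in TranspCtrl and at 353, 356 and 343 CPM in TranspExer. Every TranspExer sample was above every TranspCtrl sample, and TranspCtrl replicate 1 was the lowest of all (165 ± 44.8 against 351 ± 6.92 CPM, n = 3, log2 fold change 1.08, SE 0.19, adjusted p = 0.00409, a rise of 2.12-fold). Without that sample the log2 fold change was 0.87 (adjusted p = 4.45e-08), so that *Gsr* stayed called but was no longer past a fold change of 2. *Srxn1*, sulfiredoxin, which restores peroxiredoxins that have been oxidised too far (chr2:152105516-152111376, plus strand), had the smallest SE of the 4 largest rises. It was at 64.6, 61.2 and 62.3 CPM in TranspCtrl and 100, 95.7 and 92.0 CPM in TranspExer (0.61, SE 0.07, adjusted p = 0.000737). *Txnrd1*, the cytosolic thioredoxin reductase, rose 1.57-fold, from 157, 215 and 214 CPM to 296, 293 and 333 CPM (0.65, SE 0.13, adjusted p = 0.00824). Its groups were apart, with TranspCtrl replicate 1 again the lowest, and without that sample the log2 fold change was 0.52. The mitochondrial enzyme *Txnrd2* rose from 10.2 ± 0.540 to 13.5 ± 1.05 CPM (n = 3, 0.40, SE 0.11, adjusted p = 0.0262), a call that was lost when any sample but TranspCtrl replicate 1 was left out (adjusted p up to 0.114).

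The electron carrier itself did not follow the reductases past the threshold. *Txn1*, thioredoxin, was at 181 ± 26.5 and 179 ± 14.5 CPM (n = 3, adjusted p = 0.932), and *Txnip*, which binds and inhibits thioredoxin, at 212 ± 9.64 and 201 ± 7.86 CPM (n = 3, adjusted p = 0.442). *Nqo1*, a quinone reductase widely used as a readout of NRF2 activity, was low, at 4.93, 6.01 and 5.95 CPM in TranspCtrl and at 4.60, 4.88 and 3.58 CPM in TranspExer. All *Nqo1* values in TranspExer were below those in TranspCtrl, without passing the threshold (-0.37, SE 0.17, adjusted p = 0.129). Without TranspCtrl replicate 1 it passed, at -0.46 (adjusted p = 0.0415). The summed level of the 7 genes was 775, 850 and 873 CPM in TranspCtrl and 1155, 1148 and 1151 CPM in TranspExer.

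Among the 5 tested glutathione peroxidases, which reduce hydrogen peroxide and lipid peroxides, 1 rose and 3 fell. *Gpx1*, the cytosolic enzyme, was at 297, 244 and 252 CPM in TranspCtrl and 391, 393 and 350 CPM in TranspExer, with no overlap (0.52, SE 0.10, adjusted p = 0.00734). *Gpx3*, the secreted plasma enzyme (chr11:54902453-54910377, plus strand), went the other way, with 731, 801 and 812 CPM in TranspCtrl and 440, 438 and 420 CPM in TranspExer. It had the smallest adjusted p of all members and the largest loss in level (781 ± 44.3 against 432 ± 11.2 CPM, n = 3, log2 fold change -0.85, SE 0.08, adjusted p = 0.000319, a fall of 1.81-fold). *Gpx7* and *Gpx8* reside in the endoplasmic reticulum (ER), where they act beside protein folding. *Gpx7* fell from 20.9, 18.3 and 18.8 CPM to 12.03, 11.1 and 10.4 CPM (-0.79, SE 0.11, adjusted p = 0.00140). *Gpx8* was at 61.0, 33.5 and 33.5 CPM in TranspCtrl and at 26.1, 23.0 and 20.7 CPM in TranspExer. TranspCtrl replicate 1 was far above the other samples for *Gpx8* (-0.88, SE 0.24, adjusted p = 0.0248), whose log2 fold change was -0.53 without that sample, and the call was lost when any 1 TranspExer sample was left out (adjusted p up to 0.102). *Gpx4*, which reduces lipid hydroperoxides in membranes, was at 152 ± 21.5 and 176 ± 23.4 CPM (n = 3, adjusted p = 0.244). It passed only without TranspCtrl replicate 1 among the fits that leave out 1 sample (0.33, adjusted p = 0.0114). *Gpx4* shares 34.7% of its 50-base windows with other annotated transcripts, a pseudogene among them, so that its reads could be assigned to either.

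The peroxiredoxins, peroxide reductases most of which draw on thioredoxin, likewise split, with 1 of 6 higher and 2 lower. *Prdx1*, cytosolic and the most abundant member per kilobase in TranspExer, was at 785, 621 and 662 CPM in TranspCtrl and at 1005, 958 and 944 CPM in TranspExer. Its groups were apart (0.49, SE 0.11, adjusted p = 0.0105), but the call was lost without TranspExer replicate 1 or 2 (adjusted p up to 0.0546). *Prdx4*, the ER member of the family (chrX:155323918-155340754, minus strand), fell from 90.1, 79.8 and 90.0 CPM to 54.6, 50.6 and 49.3 CPM (-0.75, SE 0.08, adjusted p = 0.000567). The cytosolic *Prdx2* fell from 123 ± 9.99 to 94.7 ± 3.69 CPM (n = 3, -0.38, SE 0.08, adjusted p = 0.0127), and lost its call without TranspExer replicate 2 or 3 (adjusted p up to 0.0662). The other peroxiredoxins, *Prdx3*, *Prdx5* and *Prdx6*, did not pass the test (log2 fold changes 0.11, -0.29 and 0.04). *Prdx5* went to -0.06 without TranspCtrl replicate 1, which was at 211 CPM against 129 and 145 CPM in replicates 2 and 3 and 121 to 142 CPM in TranspExer.

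The superoxide dismutases turn superoxide into hydrogen peroxide, which catalase breaks down. The cytosolic *Sod1* (89.5 ± 12.99 and 86.1 ± 2.31 CPM, n = 3, adjusted p = 0.708) and the mitochondrial *Sod2* (77.9 ± 7.17 and 79.1 ± 1.70 CPM, n = 3, adjusted p = 0.850) did not pass the test. The secreted *Sod3* was at 96.4, 157 and 155 CPM in TranspCtrl and at 75.7, 67.9 and 72.6 CPM in TranspExer. TranspCtrl replicate 1 was the lowest TranspCtrl sample and still above all TranspExer samples (-0.92, SE 0.18, adjusted p = 0.00669), and without it the log2 fold change was -1.12. *Cat*, peroxisomal catalase, rose from 200 ± 5.83 to 233 ± 2.68 CPM (n = 3, 0.22, SE 0.07, adjusted p = 0.0458), the smallest called change of any member, and lost its call in every fit that left out 1 sample other than TranspCtrl replicate 1 (adjusted p up to 0.167).

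**Figure D2:**
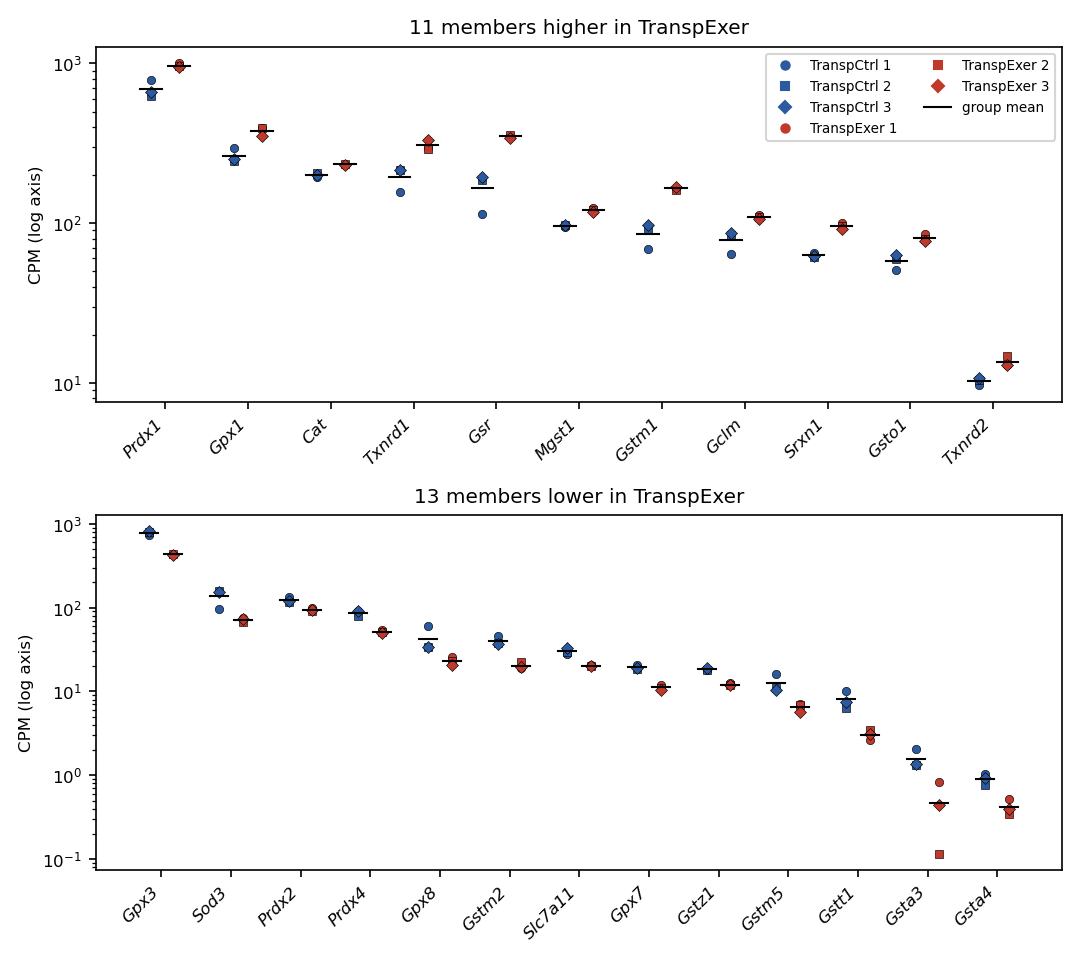
CPM (log axis) in each of the 6 samples for the 11 members that were higher and the 13 that were lower in TranspExer, with colour for the group, marker shape for the replicate and a line at the group mean. In all 24 genes the groups are apart, and TranspCtrl replicate 1 (circles) is the lowest control for *Gsr* and *Sod3* and the highest for *Gpx8*.

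Grouped by where the proteins act, a grouping chosen after the values were seen and therefore not tested, all 5 tested members of the ER lumen or the extracellular space (*Gpx3*, *Gpx7*, *Gpx8*, *Prdx4* and *Sod3*) were lower in TranspExer, beside 15.5% of all genes. Their median log2 fold change was -0.85, between -0.75 and -0.92, with *Gpx8* at -0.53 without TranspCtrl replicate 1 and not called when any 1 TranspExer sample was left out. The 2 other genes of this kind, *Gpx5* and *Gpx6*, were not tested. The membrane-bound microsomal transferases, *Mgst1* (0.33, called higher) and *Mgst3* (0.31, not called), were left out of this grouping. As the grouping was drawn from these same values, its count is a description only. B and plasma cell markers (plasma cells are secretory and rich in ER) were lower in 8 of 9 (median log2 fold change -1.45) and stromal markers in 7 of 11 (median -0.47), and the part of either in these falls was not tested.

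The 23 listed glutathione S-transferases form the largest family, and 2 of the 13 that were tested rose while 6, the filter-dependent *Gsta3* and *Gsta4* among them, were lower. The mu class, whose protein-coding genes lie side by side on chromosome 3, held the widest contrast. *Gstm1* (chr3:108012255-108017973, minus strand) was at 69.1, 92.0 and 96.8 CPM in TranspCtrl and 165, 161 and 169 CPM in TranspExer. Its neighbour *Gstm2* (chr3:107981702-107986453, minus strand) was at 45.5, 37.3 and 36.5 CPM and then at 19.1, 22.1 and 19.8 CPM. The 2 genes thus moved in opposite directions by similar amounts, *Gstm1* up by 0.94 (SE 0.13, adjusted p = 0.00132) with *Gstm2* at -0.97 (SE 0.11, adjusted p = 0.000737) on the log2 scale. *Gstm5* (chr3:107895821-107898686, plus strand) fell from 16.1, 11.0 and 10.3 CPM to 7.11, 6.92 and 5.71 CPM (-0.92, SE 0.19, adjusted p = 0.00983), losing its call without TranspExer replicate 3 (adjusted p = 0.0521). Without TranspCtrl replicate 1 the log2 fold changes were 0.81 for *Gstm1* and -0.70 for *Gstm5*. *Gstm4* (0.01, adjusted p = 0.944) and the scarce *Gstm7* (-0.80, SE 0.39, adjusted p = 0.153, and -1.02 without TranspCtrl replicate 1) did not pass the test.

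As a share of all mu-class CPM, *Gstm1* held 49.1%, 61.5% and 63.6% in the TranspCtrl samples and 82.5%, 81.2% and 82.9% in the TranspExer samples. The summed mu-class level was 141, 150 and 152 CPM and then 200, 199 and 204 CPM. Without *Gstm1* the direction turned, with 71.5, 57.6 and 55.5 CPM in TranspCtrl and 35.1, 37.4 and 34.9 CPM in TranspExer. *Gstm1* shares 18.9% of its 50-base windows with *Gstm2-ps1*, *Gstm3* and another annotated gene, *Gstm2* 5.66%, and *Gstm5* overlaps an antisense gene over 178 exonic bases, so that some reads of these genes could have been assigned to another. *Gstm2-ps1* and *Gstm3* were at 0 counts in every sample, which allows up to 0.139 to 0.174 CPM per sample (3 counts, counting error only).

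Outside the mu class, the theta-class *Gstt1* (chr10:75783813-75798584, minus strand) fell 2.62-fold, from 10.2, 6.37 and 7.49 CPM to 2.62, 3.43 and 3.13 CPM. The groups were well apart (-1.39, SE 0.21, adjusted p = 0.00245), and the log2 fold change was -1.18 without TranspCtrl replicate 1. Its neighbours *Gstt2* (-0.15, adjusted p = 0.531) and *Gstt3* (-0.14, adjusted p = 0.437) did not pass the test. *Gstz1*, which also acts as an isomerase in tyrosine breakdown, was at 18.2, 17.8 and 19.2 CPM and then at 12.6, 11.8 and 11.8 CPM (-0.61, SE 0.09, adjusted p = 0.00242). *Gsto1*, which reduces dehydroascorbate, rose from 51.2, 59.8 and 63.1 CPM to 85.2, 79.4 and 76.8 CPM, again with no overlap (0.47, SE 0.10, adjusted p = 0.00855). *Gstp1*, the pi-class enzyme, was at 73.2 ± 10.7 and 89.8 ± 2.49 CPM (n = 3). Its groups did not overlap, yet it missed the threshold (0.29, SE 0.11, adjusted p = 0.0734), which it passed without TranspCtrl replicate 1 or 3 (smallest adjusted p = 0.0313). *Gstp1* shares 33.7% of its windows with *Gstp2* and a pseudogene.

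The alpha-class genes were barely expressed. For *Gsta3* the TranspCtrl samples held 42, 26 and 29 counts, and the TranspExer samples 16, 2 and 9, and *Gsta4*, which clears lipid aldehydes, had 21, 15 and 20 and then 10, 6 and 8. Both were below all TranspCtrl samples in TranspExer. They had entered the test through the group in which they were high, so that their fitted log2 fold changes, -1.72 (SE 0.50) and -1.09 (SE 0.32), are a description and their calls no evidence of a fall. Leaving out 1 sample moved the value of *Gsta3* between -2.42 and -1.31, without a call for *Gsta3* when TranspCtrl replicate 2 or 3 or TranspExer replicate 2 or 3 was left out and for *Gsta4* in all 6 such fits.

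The microsomal transferases, membrane proteins unrelated in sequence to the soluble family, were both higher in mean. *Mgst1* was at 94.3, 97.4 and 96.7 CPM in TranspCtrl and 125, 121 and 117 CPM in TranspExer. The replicates were close together (0.33, SE 0.07, adjusted p = 0.00976), and the call was lost only without TranspExer replicate 2 among the fits that leave out 1 sample (adjusted p = 0.0526). *Mgst3* was at 7.81 ± 0.881 and 9.71 ± 1.45 CPM (n = 3) and did not pass the test (adjusted p = 0.153).

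The 13 members below the filter were at or near 0. *Gpx5*, *Gsta1*, *Gsta5*, *Gstm2-ps1*, *Gstm3* and *Gstt4* had 0 counts in all samples. *Gpx2*, *Gpx6* and *Gsta2* had at most 2 counts in any sample and *Gstm6*, *Gsto2* and *Gstp3* at most 6. *Gstp2*, with up to 15 counts, was the highest of them, and 54.3% of its windows are shared with *Gstp1* and a pseudogene.

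Per kilobase of gene length, as CPM per kilobase, the order of the members changed at the top. *Gpx3* was in place 1 in TranspCtrl at 490 and place 3 in TranspExer at 271, while *Prdx1* went from 300 to 422 and *Gpx1* from 246 to 353, so that these 3 genes led both groups. *Gstm1* moved from place 8 to place 4 (104 to 199 CPM per kilobase) and *Gsr* from place 17 to place 9 (61.9 to 131). *Prdx5* (214 to 175), *Txn1* (172 to 170), *Gpx4* (153 to 177) and *Sod1* (140 to 134) lay between, and none of these 4 passed the test. The lowest tested member in both groups was *Gstm7*, at 0.740 and 0.425.

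**Figure D3:**
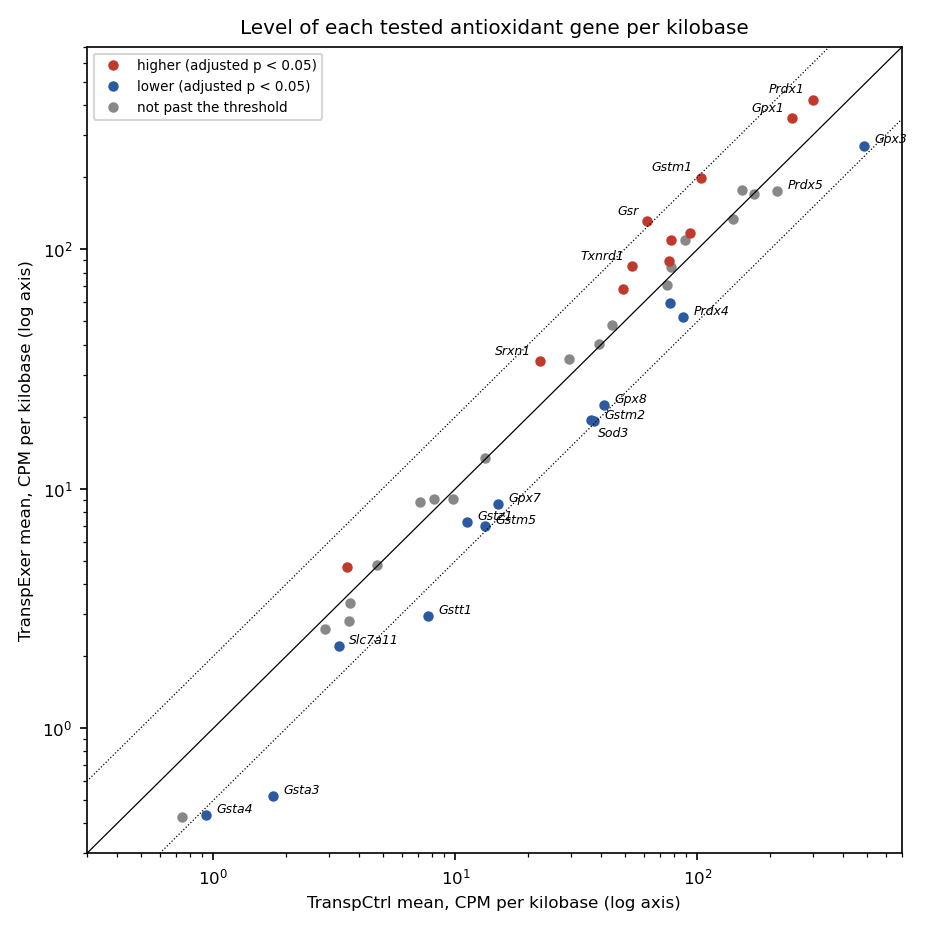
Mean level of each tested antioxidant gene in CPM per kilobase, TranspCtrl on the horizontal and TranspExer on the vertical log axis, with a solid line of equality and dotted lines at a fold change of 2. *Gpx3* is the rightmost point at 490 and 271, and *Gsr* lies just past the upper dotted line.

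Summed by family, the levels of the glutathione S-transferases were 301, 322 and 343 CPM in TranspCtrl and 407, 393 and 400 CPM in TranspExer, a sum in which *Gstm1* was the leading gene in TranspExer. The summed glutathione peroxidases went from 1285, 1230 and 1264 CPM to 1070, 1040 and 955 CPM, and all tested and untested members together from 4703, 4556 and 4700 CPM to 5176, 5042 and 4933 CPM. The sums of these 2 families turned on their most abundant gene. Without *Gpx3* the other peroxidases summed to 554, 429 and 451 CPM in TranspCtrl and 630, 602 and 535 CPM in TranspExer, which overlapped. Without *Gstm1* the other transferases summed to 231, 230 and 246 CPM and then to 242, 232 and 231 CPM, likewise with overlap. The total over all members was not recomputed without *Prdx1*, which alone went from 785, 621 and 662 CPM to 1005, 958 and 944 CPM. None of these sums was tested.

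Leaving out TranspCtrl replicate 1, 15 members were higher and 13 lower, beside 22.1% and 19.6% of 15494 genes. Against the fit with all samples, *Gsta4* lost its call, and *Nfe2l2*, *Gclc* (0.26, adjusted p = 0.0136), *Gpx4*, *Gstp1* (0.19, adjusted p = 0.0325) and *Nqo1* gained one. No called member changed sign when any 1 sample was left out, and 14 of the 24 were called in each of the 6 such fits: *Slc7a11*, *Gsr*, *Txnrd1*, *Srxn1*, *Gpx1*, *Gpx3*, *Gpx7*, *Prdx4*, *Sod3*, *Gstm1*, *Gstm2*, *Gsto1*, *Gstt1* and *Gstz1*.

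**Figure D4:**
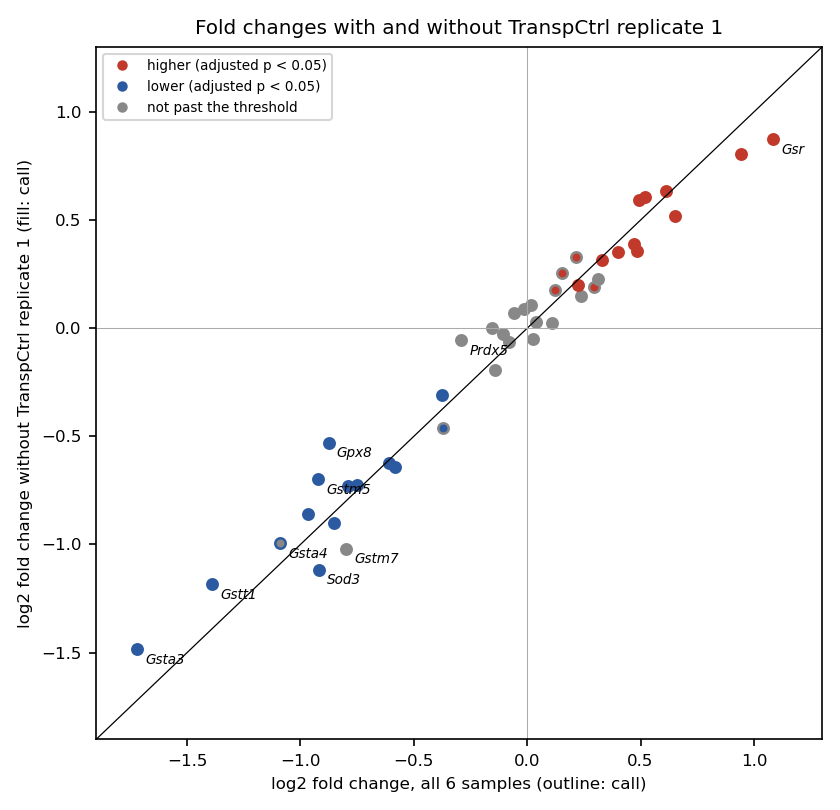
Log2 fold change of each tested antioxidant gene with all 6 samples (horizontal) and without TranspCtrl replicate 1 (vertical), the outline giving the call with all samples, the fill the call without it, and the line equality. *Gsr* moves from 1.08 to 0.87, *Gpx8* from -0.88 to -0.53 and *Sod3* from -0.92 to -1.12.

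Genes around the same pathways were read from lists that were written by hand. Of 136 such genes 128 were tested, with 29 higher and 14 lower (33.6% called, against 32.2% of all genes) and a median log2 fold change of 0.04. Among NRF2 partners and further targets, 6 of 26 were higher and 2 lower. With 30.8% called, near the share of all genes, this count is no result about the list. The drug exporter *Abcc3* (0.89, adjusted p = 0.00215), heme oxygenase *Hmox1* (0.54, adjusted p = 0.00543) and the ferritin light chain *Ftl1* (0.48, adjusted p = 0.00653) rose, while the glutathione-conjugate exporter *Abcc1* fell (-0.37, adjusted p = 0.00748). The ferritin heavy chain *Fth1*, named after its values were seen, was the only gene of that list past both thresholds (1.12, adjusted p = 0.0103), with 3424 CPM in TranspCtrl replicate 1 against 6564 and 6760 CPM in the other 2 and 11642 to 12481 CPM in TranspExer. Without that replicate its log2 fold change was 0.86 (adjusted p = 8.26e-09), below a fold change of 2.

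In the list for NADPH supply, not all of whose genes form NADPH themselves, 5 of 20 were higher and 3 lower (40% called, against 32.2% of all genes). *Tkt*, of the pentose phosphate pathway, rose (0.56, adjusted p = 0.00279). *G6pdx* (0.10, adjusted p = 0.290) and *Pgd* (0.14, adjusted p = 0.208) of the same pathway did not pass the test. The 3 that fell were mitochondrial folate enzymes, *Aldh1l2* (-1.36, adjusted p = 4.54e-05), *Mthfd2* (-0.54, adjusted p = 0.00182) and *Mthfd1l* (-0.46, adjusted p = 0.00760). In glutathione precursor supply and turnover, 2 of 17 were higher and 3 lower (29.4% called, likewise near the share of all genes). *Cth*, which makes cysteine from cystathionine, fell from 19.3, 16.6 and 15.2 CPM to 3.92, 4.71 and 3.87 CPM (-2.03, adjusted p = 8.10e-05), the largest fall in these lists. *Chac1*, which degrades glutathione, fell as well (-0.88, adjusted p = 0.000726), as did the dipeptidase *Dpep1* (-0.41, adjusted p = 0.0225), whereas the aminopeptidase *Anpep* rose (1.76, adjusted p = 8.52e-05). The transcripts of *Slc7a11*, for cystine import, and *Cth*, for cysteine synthesis, were thus both lower in TranspExer, and *Gclm* was higher. *Slc3a2* (0.12, adjusted p = 0.206) and *Cbs* (0.18, adjusted p = 0.775), in the same list as *Cth*, did not pass the test.

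The share of calls was lowest among other thiol redox enzymes (11.1%) and highest among oxidant-producing enzymes (56.2%), beside 32.2% of all genes. Other glutathione-using enzymes (33.3%) and the selenoprotein list (36.8%) were near the share of all genes. Differences between the lists were not tested. Other thiol redox enzymes had 1 of 18 higher, *Msra* (0.36, adjusted p = 0.0494), and 1 lower, *Sesn3* (-0.62, adjusted p = 0.0155). Other glutathione-using enzymes had 3 of 12 higher, *Hpgds* (0.51, adjusted p = 0.00372), *Mgst2* (0.49, adjusted p = 0.0284) and *Clic4* (0.31, adjusted p = 0.0415), and 1 lower, *Ptges* (-0.73, adjusted p = 0.00311). Genes of selenoprotein synthesis and other selenoproteins had 4 of 19 higher, among them *Scly* (0.57, adjusted p = 0.00361), *Selenop* (0.50, adjusted p = 0.0200) and *Selenon* (0.81, adjusted p = 0.0229), and 3 lower, among them *Pstk* (-0.49, adjusted p = 0.0317). *Selenon* was at 62.4 CPM in TranspCtrl replicate 1 against 115 CPM in each of the other 2, and at 0.57 on the log2 scale without that sample. Oxidant-producing enzymes had 8 of 16 higher and 1 lower, beside 16.6% and 15.5% of all genes, with a median log2 fold change of 0.32. They were led by the granule peroxidases *Epx* (2.80, adjusted p = 4.26e-05) and *Mpo* (2.47, adjusted p = 0.000123), followed by the NADPH oxidase *Nox4* (1.19, adjusted p = 0.000149) and the oxidase subunit *Cyba* (0.93, adjusted p = 0.00198). The 1 that fell, the aldehyde oxidase *Aox1*, is named after its values were seen (-1.51, adjusted p = 0.0407). Among the fits that leave out 1 sample, *Aox1* was called only without TranspCtrl replicate 3 (adjusted p up to 0.135 in the others). Without TranspCtrl replicate 1 it was at -0.97 (adjusted p = 0.0701). Of the other genes named from these lists, *Dpep1*, *Sesn3*, *Msra*, *Mgst2*, *Clic4*, *Selenop*, *Selenon* and *Pstk* each lost their call in at least 1 fit that left out a sample (adjusted p up to 0.185). *Epx* and *Mpo* are also in the eosinophil and neutrophil marker lists and count in their sums, both of which were higher in TranspExer. The neutrophil list was mixed, with *Ngp*, *Elane* and *Mpo* higher, *Ly6g* (-0.54) and *Cxcr2* (-0.56) lower and 5 of 10 not called. The part of those cells was not tested.

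**Figure D5:**
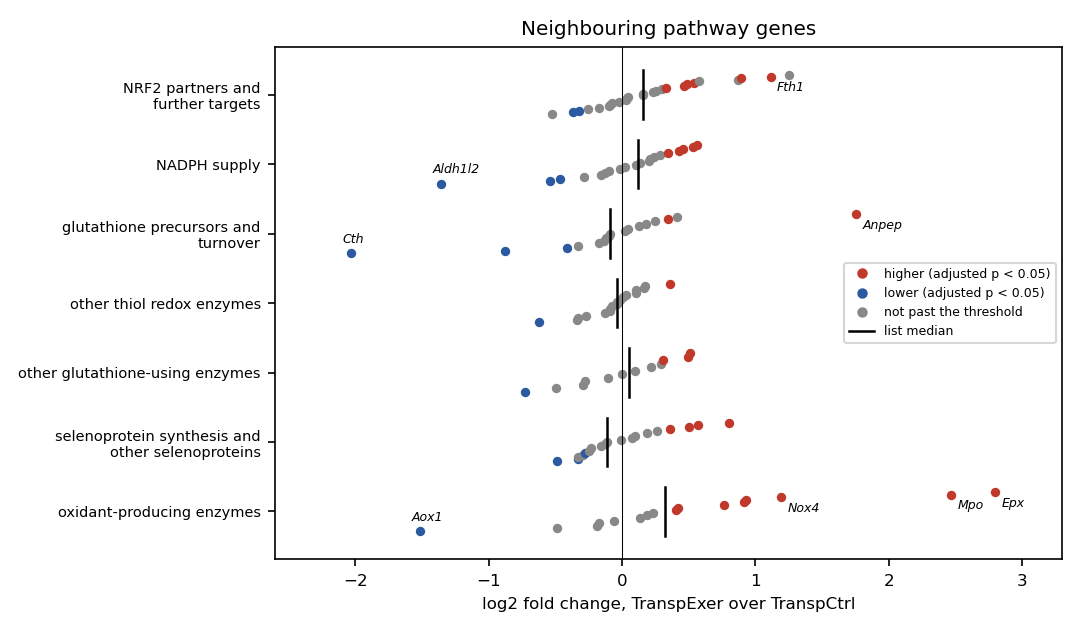
Log2 fold change of TranspExer over TranspCtrl for the 128 tested genes of the 7 neighbouring pathway lists, 1 point per gene, spread vertically within its list by rank, with a vertical line at each list's median. *Cth* lies furthest to the left at -2.03, and *Epx* and *Mpo* furthest to the right.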

How the data were processed

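The RNA-Seq samples of BM MSCs, 3 TranspCtrl and 3 TranspExer, were analysed in the groups of their labels. The authors deposited expected counts per gene (estimated counts, not normalized, 10.1% to 12.2% of values not whole) and a gene length, which has no stated derivation. The genome build was mm10 per the submitters' processing notes. The aligner, counter and annotation are not given in the sources used here. The labels name a stranded Illumina kit and the study's methods a TruSeq kit, so reads of antisense partners may not be told apart.

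Counts were rounded and tested in R 4.3.3 with edgeR 4.0.16 (filterByExpr, TMM scaling, quasi-likelihood test with group as the only term, Benjamini-Hochberg adjustment over 15190 genes). The standard error (SE) is the absolute log2 fold change over the square root of the F statistic. CPM used TMM-scaled library sizes, and are given as mean ± SD. The floor of 3 counts equals 0.139 to 0.174 CPM. The fit was tested on simulated data. Windows of 50 bases were compared across GENCODE transcripts, and promoters came from RefSeq.

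Values in every sample are given for members past both thresholds and the 12 with the smallest adjusted p, and for others chosen after their values were seen. Of each pathway list, up to 4 genes with the smallest adjusted p are named. The members and lists were chosen with earlier results of these data known. Alternatives were DESeq2 1.42.0, other scalings and filters, a replicate block, edgeR's glmTreat against a 2-fold change and each sample left out in turn.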

Additional observations from a re-analysis of the deposited data

How the results depend on the processing

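The counts of members higher and lower were within 1.5 times of 11 and 13 under DESeq2, other scalings, other filters and the replicate block. Of the 24 calls, DESeq2 kept 23 (*Gsta4* lost), upper-quartile scaling and library size only kept 22 each (*Txnrd2* and *Cat* lost), no low-count filter kept 21, and a mean of at least 50 counts kept 21 of the 22 still tested. Downregulated members past both thresholds numbered 5 with upper-quartile scaling, 5 with library size only and 1 with a mean of at least 50 counts. Over the 40 members that reached the filter in both groups, an alternative chosen after seeing the data, 1 was downregulated and 11 were lower. With glmTreat against a 2-fold change, 0 members were called in either direction (0 higher, 0 lower, 0 upregulated and 0 downregulated past both thresholds) by edgeR, where 138 genes were higher and 274 lower in all, and edgeR's test without that threshold gave 24 calls. Leaving out 1 sample gave 6 to 15 members higher, 8 to 13 lower, 0 to 2 upregulated and 1 to 4 downregulated past both thresholds, and 17 to 43 pathway genes higher and 7 to 25 lower. The fewest higher members (6) came without TranspExer replicate 2 and the fewest lower (8) without TranspExer replicate 3, where all genes had 1315 higher of 15625 and 1352 lower of 15512, against 2523 and 2361 of 15190 with all samples. Without replicate 1 or 2 of TranspExer 7 and 6 members were higher, and pathway genes lower numbered 7 in both. The causes were not tested.

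With the replicate block 10 members were higher and 12 lower, with *Cat* and *Gsta4* losing their calls and 1 upregulated and 2 downregulated past both thresholds. Deviations of same-numbered samples correlated at 0.02, -0.00 and 0.04, and not every sample correlated best with its own number. No pairing by number was seen, but with 3 samples per group such a check could not exclude one.

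Changes of sign occurred only in members that did not pass the test. The log2 fold change of *Prdx6* was -0.042 with upper-quartile scaling and -0.050 with library size only. That of *Sod2* was -0.053 and -0.060 with these and -0.0060 with a mean of at least 50 counts, and that of *Gstm4* -0.068, -0.075 and -0.016. Leaving out 1 sample gave -0.12 to 0.088 for *Txn1*, -0.12 to 0.069 for *Sod1*, -0.052 to 0.066 for *Sod2* and -0.075 to 0.11 for *Gstm4*. The scalings split all genes as 2523 higher and 2361 lower with TMM, 2052 and 2901 with upper-quartile scaling and 2013 and 2962 with library size only, where the median of all genes moved from -0.02 to -0.10. Medians of the list of other glutathione-using enzymes and of the selenoprotein list moved to 0.17 and 0.0052 without TranspCtrl replicate 1. The 13 untested members did not pass the low-count filter, and no comparison of them is given here.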
